A study of Mus musculus with 4 samples.

Results

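The genes described here are 6 members of the neurotrophin system of the mouse retina: the receptor genes Ntrk2, Ntrk3 and Ngfr, the ligand genes Bdnf and Ntf3, and Sort1, which encodes a sorting receptor for the ligands. They were taken by symbol from the 27999 genes measured, and all 6 were found. The cells came from C57BL/6 mice aged 3 months that carry a Brn3b::GFP reporter, in which GFP marks cells that use Brn3b (Pou4f2), a transcription factor of retinal ganglion cells (RGCs). Dissociated retina was sorted for GFP and sequenced with a 10x Genomics 3′ kit, and the 4 retinas formed 1 group without a treatment or a genotype contrast. The deposited counts hold 3237 cell barcodes with no tie to a retina, so they were read as 1 pooled sample, and no p-value or spread between retinas can be given. Values are counts of unique molecular identifiers (UMIs) summed over a class of barcodes and scaled to an equal total per class (CPM). Ranges in brackets are exact 95% intervals and cover counting error only.

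Neurotrophins are secreted survival and plasticity factors. Each acts through a preferred Trk receptor tyrosine kinase: BDNF through TrkB, the product of Ntrk2, and NT-3, the product of Ntf3, chiefly through TrkC, the product of Ntrk3. The p75 receptor, encoded by Ngfr, binds every mature neurotrophin and, together with sortilin, the unprocessed forms. In the retina BDNF is best known for supporting the survival of ganglion cells, and p75 has long been described on Müller glia.

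The sort was labelled as RGCs, but the barcodes were of several kinds, and 5 classes were set by marker counts. RGC barcodes had Slc17a6 of at least 1, Rbpms plus Slc17a6 of at least 3 and Lhx1 of at most 1, and there were 934 of them (28.9% of all barcodes). Horizontal barcodes (Lhx1 of at least 2, no Slc17a6) numbered 454, amacrine barcodes (Gad1 plus Slc6a9 of at least 3) 135, Müller barcodes (Rlbp1 and Slc1a3 of at least 3 each) 230, and microglia barcodes (C1qa, C1qb and C1qc summing to at least 20) 179. A further 24 barcodes met more than 1 rule and were left out of the classes, and 1281 met none. Marker lists that the rules do not use were highest in their own class: the RGC list summed to 8901 CPM in RGC barcodes, against 321 to 1288 CPM elsewhere. Near the rule's minimum stood 65 RGC, 230 horizontal, 61 amacrine, 73 Müller and 2 microglia barcodes. Median depth was 15843 UMIs per RGC barcode, 11075 per horizontal, 5708 per amacrine, 4652.5 per Müller and 3894 per microglia barcode, so shares of barcodes are given with every barcode thinned to 3000 UMIs as well as in full. The barcodes share 1 suffix, and 0 of them occur more than once.

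The Trk genes encode more than one receptor form, and the counts do not separate them. Full-length TrkB and TrkC carry the kinase domain, while truncated forms lack it. The coding sequences where the forms part are shown because a UMI of Ntrk2 or Ntrk3 may come from either form. They are from GENCODE M21 (build mm10), read 5′ to 3′ on the gene's strand. Lower case marks the last 30 coding bases that both forms share, and capitals mark the first bases that belong to that form alone, up to 60 or to the end of the coding sequence.
Ntrk2-201, full length: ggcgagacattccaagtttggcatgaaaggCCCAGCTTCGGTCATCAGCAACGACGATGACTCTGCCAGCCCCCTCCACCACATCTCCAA
Ntrk2-202, truncated: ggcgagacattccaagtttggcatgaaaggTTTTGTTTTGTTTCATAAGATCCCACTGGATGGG
Ntrk3-201, full length: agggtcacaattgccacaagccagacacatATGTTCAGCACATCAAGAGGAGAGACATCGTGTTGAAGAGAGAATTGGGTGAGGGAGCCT
Ntrk3-202, truncated: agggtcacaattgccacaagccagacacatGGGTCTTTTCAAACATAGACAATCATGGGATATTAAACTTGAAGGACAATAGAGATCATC
Ntrk2-201 encodes 821 residues and Ntrk2-202 encodes 476, with 1394 coding bases in common. The coding sequences of the pair end 196.3 kb apart within the gene, which lies on the plus strand of chromosome 13 (58806569 to 59133970). Ntrk3-201 encodes 825 residues and Ntrk3-202 encodes 612. They share 1585 coding bases and end 110.1 kb apart in the gene on the minus strand of chromosome 7 (78175959 to 78738012). The other members lie on chromosome 11 (Ngfr, 95568818 to 95587735, minus strand), chromosome 2 (Bdnf, 109674700 to 109727007, plus strand), chromosome 6 (Ntf3, 126101412 to 126166910, minus strand) and chromosome 3 (Sort1, 108284082 to 108361511, plus strand).

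Ntrk2 had UMIs in barcodes of each of the 5 classes and was not highest in RGCs. It stood at 39.4 CPM (36.4 to 42.6) in RGC barcodes, against 66.6 CPM (59.6 to 74.1) in horizontal barcodes, which were 1.69-fold higher (1.48 to 1.93). Amacrine barcodes had 51.4 CPM (37.4 to 69.0), Müller barcodes 32.9 CPM (23.2 to 45.4) and microglia barcodes 20.5 CPM (11.97 to 32.9). In the order horizontal, amacrine, RGC, Müller, microglia, the intervals of neighbouring classes overlapped at every step. An Ntrk2 UMI was present in 44.0% of RGC barcodes (411 of 934), 50.7% of horizontal and 7.82% of microglia barcodes. At 3000 UMIs per barcode the shares were 10.8% in RGC, 20.04% in horizontal, 10.4% in amacrine, 2.17% in Müller and 4.47% in microglia barcodes. RGC barcodes mostly carried little of it: 253 had 1 UMI, 120 had 2, and 5 had 5 or more.

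The Müller value of Ntrk2 rested on a handful of barcodes. Of its 37 UMIs, 33 fell in 4 barcodes, with 11, 10, 9 and 3 UMIs, and these 4 also carried 10 or more UMIs of an astrocyte list (Gfap, Pax2, S100b and Pdgfra). That group was set apart after the values were seen. The other 226 Müller barcodes held Ntrk2 at 3.71 CPM (1.01 to 9.49), with a UMI in 3 of them. RGC barcodes were 10.6-fold higher (4.13 to 39.1) than these 226, and 1.20-fold (0.858 to 1.71) against the whole Müller class. With each barcode thinned to 3000 UMIs the log2 ratio against the whole class was 1.40, past 2-fold, against 0.26 as reported.

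The RGC level of 39.4 CPM was also below that of the barcodes outside the 5 classes, which held Ntrk2 at 88.5 CPM (81.8 to 95.6). Their median share of mitochondrial UMIs was 8.69%, and with barcodes at or over 10% left out they held 78.0 CPM. They were divided by marker lists after this was seen. The 713 barcodes with the bipolar list (Trpm1, Pcp2, Grm6 and others, summing to 5 or more and to more than the cone list) held 124 CPM (112 to 137), 3.15-fold (2.77 to 3.57) the RGC level. At 3000 UMIs, 10.8% of RGC barcodes had an Ntrk2 UMI, against 32.3% of those with the bipolar list. The intervals overlapped between barcodes with 2 or more UMIs of Prkca, a marker of rod bipolar cells, at 123 CPM (111 to 137), and those with fewer, at 129 CPM (93.1 to 173). The 131 barcodes with the cone list were lower, at 19.1 CPM (9.55 to 34.2). A set of 13 barcodes rich in Gpx3, Optc and Fbln1 (20 or more UMIs together), also chosen after its Ntrk2 counts were seen, reached 618 CPM (489 to 772), with a UMI in 12 of 13. Ptgds and Apoe were abundant in it, at 24492 and 23374 CPM, and the set is given no cell type name. It included 4 barcodes of the amacrine class, and without them the amacrine Ntrk2 level was 37.3 CPM (25.2 to 53.3). The bipolar list summed to 7986 CPM in the barcodes of no class, 2342 CPM in microglia and 1307.5 CPM in amacrine barcodes. It summed to 365 CPM in Müller, 225 CPM in horizontal and 211 CPM in RGC barcodes. Whether RNA from bipolar cells adds to the Ntrk2 UMIs of the 5 classes was not tested.

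**Figure D1:**
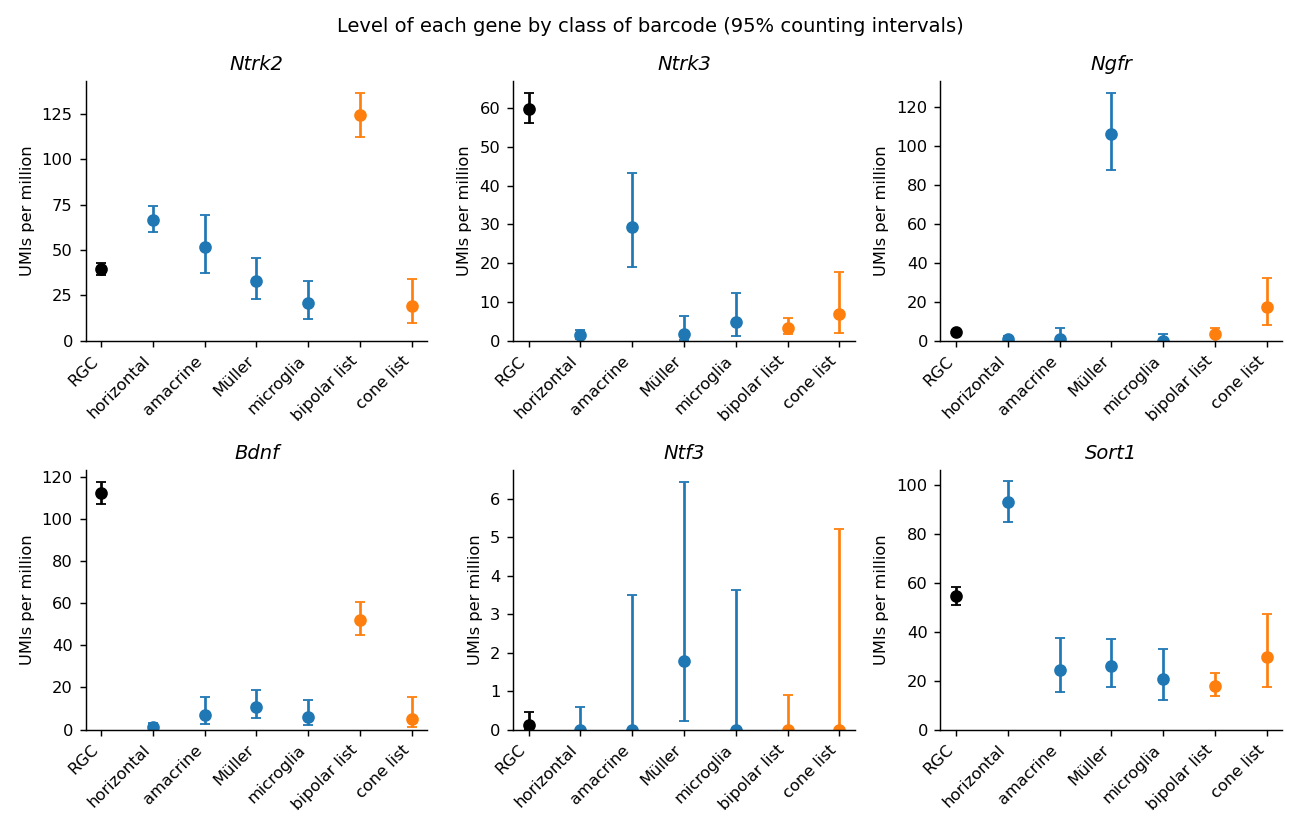
Level of each gene in CPM (vertical axes, each with its own scale) by class of barcode. Points are pooled values and bars 95% counting intervals (for a class at 0, the bar ends at 3 counts); black is RGC, blue the other classes set by the rules, orange the groups set by marker lists after the data were seen. Among the groups drawn, Ntrk3 and Bdnf are highest in RGC barcodes (59.8 and 112 CPM), Ngfr in Müller barcodes (106 CPM), Sort1 in horizontal barcodes (93.0 CPM), and Ntrk2 in barcodes with the bipolar list (124 CPM).

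Ntrk3 was highest in RGCs, with amacrine cells next. It stood at 59.8 CPM (56.1 to 63.7) in RGC barcodes, against 29.2 CPM (18.9 to 43.1) in amacrine, 4.83 CPM (1.32 to 12.4) in microglia, 1.78 CPM (0.216 to 6.43) in Müller and 1.39 CPM (0.559 to 2.87) in horizontal barcodes. RGC barcodes were 43.0-fold (20.8 to 107) above horizontal and 12.4-fold (4.82 to 45.5) above microglia barcodes. The Müller ratio, 33.6-fold, rests on 2 Müller UMIs and has the interval 9.27 to 278. The amacrine ratio of 2.05 (1.38 to 3.18) is close to the 2-fold line, and the log2 ratio was 0.31 when every class minimum was doubled, against 1.03 as reported. An Ntrk3 UMI was present in 55.0% of RGC barcodes and 1.54% of horizontal barcodes in full counts, and in 16.7% and 0.22% of them at 3000 UMIs. In RGC barcodes 23 had 5 or more UMIs, whereas no horizontal barcode had more than 1.

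Ngfr, the p75 gene, was found in a small minority of RGCs and was highest in Müller glia. RGC barcodes held 73 UMIs, 4.62 CPM (3.62 to 5.80), in 34 of 934 barcodes (3.64%). Müller barcodes held 119 UMIs, 106 CPM (87.8 to 127), and 38.3% of them had at least 1. The Müller level was 23.0-fold (17.0 to 31.2) above the RGC level, and the Müller value was 108 CPM (89.7 to 130) without the 4 barcodes of the astrocyte list. At 3000 UMIs the shares were 0.535% in RGC and 27.0% in Müller barcodes. Horizontal barcodes had 6 UMIs and amacrine barcodes 1. Microglia barcodes had none in 179, and 3 counts of that total set the limit on the share with a UMI at 1.68%, which is no limit on cells that use the gene. The RGC counts were not spread as single UMIs alone: 19 barcodes had 1, 4 had 2, 9 had 3 or 4, and 2 had 5 or more, the highest with 10.

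Bdnf was the ligand gene with most of its UMIs in RGCs. RGC barcodes held 1773 of its 2120 UMIs, 83.6%, and 50.4% of all UMIs in the data. The level was 112 CPM (107 to 117) in RGC barcodes, against 10.7 CPM (5.52 to 18.7) in Müller, 7.01 CPM (2.57 to 15.3) in amacrine, 6.04 CPM (1.96 to 14.1) in microglia and 1.39 CPM (0.559 to 2.87) in horizontal barcodes. RGC barcodes were 80.6-fold (39.0 to 201) above horizontal, 10.5-fold (5.99 to 20.3) above Müller, 16.0-fold (7.33 to 43.6) above amacrine and 18.6-fold (7.93 to 57.2) above microglia barcodes. A Bdnf UMI was present in 63.9% of RGC and 1.32% of horizontal barcodes, and at 3000 UMIs in 22.1% of RGC and 0.22% of horizontal barcodes. The spread among RGC barcodes was wide: 250 had 1 UMI, 136 had 2, 107 had 3 or 4, and 104 had 5 or more, up to 24. The annotation gives Bdnf 11 protein-coding transcripts with 1 common 3′ end, so a 3′ count pools its alternative promoters.

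Of the 298 Bdnf UMIs in the barcodes that met no class rule, 173 fell in the 713 barcodes with the bipolar list. The RGC level of 112 CPM was 2.15-fold (1.84 to 2.53) higher than the 52.2 CPM (44.7 to 60.6) of those 713 barcodes. At 3000 UMIs, 22.1% of RGC barcodes had a Bdnf UMI, against 15.6% of those with the bipolar list. With 2 or more Prkca UMIs the level was 54.4 CPM (46.3 to 63.4), against 32.9 CPM (16.4 to 58.9) with fewer. The 13 barcodes rich in Gpx3, Optc and Fbln1 had 119 CPM (66.6 to 196) from 15 UMIs, and the amacrine class without its 4 such barcodes had 2.49 CPM (0.302 to 8.99) from 2 UMIs. Bdnf is also known as a gene that neuronal activity can switch on. Its level was set beside response genes of that kind, chosen after the values were seen. A UMI was present in 631 RGC barcodes for Fos (70 without), 360 for Egr1 (341 without) and 71 for Arc (630 without). Whether activity bears on the Bdnf level was not tested. At equal depth, RGC barcodes with and without a Fos UMI had 112 and 113 CPM of Bdnf (ratio 0.992, 0.805 to 1.23), those with and without an Egr1 UMI 108 and 116 CPM (ratio 0.932, 0.821 to 1.06), and those with and without an Arc UMI 113 and 112 CPM (ratio 1.00, 0.808 to 1.24). Of all genes, 10.9% were 1.5-fold or more higher and 6.89% lower with Fos, 3.55% and 3.13% with Egr1, and 6.58% and 10.4% with Arc. Ngfr alone of the members passed 1.5-fold in these divisions, lower with Fos and Egr1 and higher with Arc, each time with an interval that holds 1.

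Ntf3, the NT-3 gene, was almost absent from the sorted barcodes, with 16 UMIs in 11 barcodes. RGC barcodes held 2 of them, both in 1 barcode, and Müller barcodes 2 in 2 barcodes. Horizontal barcodes had none in 454, amacrine none in 135 and microglia none in 179. By the same 3 counts the share of barcodes with a UMI, not of cells that use Ntf3, is limited to 0.661% of horizontal, 2.22% of amacrine and 1.68% of microglia barcodes. No ratio between these classes is given, since each lay at or under 3 UMIs. The 13 barcodes rich in Gpx3, Optc and Fbln1 held 9 of the 16 UMIs (71.4 CPM, 32.6 to 135) in 5 barcodes, while they held 0.402% of all UMIs in the data.

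Sort1, the sortilin gene, was shared by RGCs and horizontal cells. It stood at 54.6 CPM (51.0 to 58.4) in RGC barcodes, against 93.0 CPM (84.7 to 102) in horizontal barcodes, 1.70-fold higher (1.52 to 1.91). Müller barcodes had 25.8 CPM (17.3 to 37.1), amacrine barcodes 24.5 CPM (15.2 to 37.5) and microglia barcodes 20.5 CPM (11.97 to 32.9), with intervals that overlapped one another and stood apart from those of RGC and horizontal barcodes. RGC barcodes were 2.12-fold (1.46 to 3.18) above Müller, 2.23-fold (1.45 to 3.61) above amacrine and 2.66-fold (1.65 to 4.59) above microglia barcodes. A Sort1 UMI was present in 55.1% of RGC, 61.9% of horizontal and 8.38% of microglia barcodes. At 3000 UMIs these shares were 15.4% in RGC, 23.6% in horizontal and 4.47% in microglia barcodes. Within the bipolar list, Sort1 divided by Prkca: barcodes with 2 or more Prkca UMIs had 9.39 CPM (6.24 to 13.6), against 92.8 CPM (63.0 to 132) in the 68 with fewer, 9.87-fold higher (5.73 to 17.1).

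**Figure D2:**
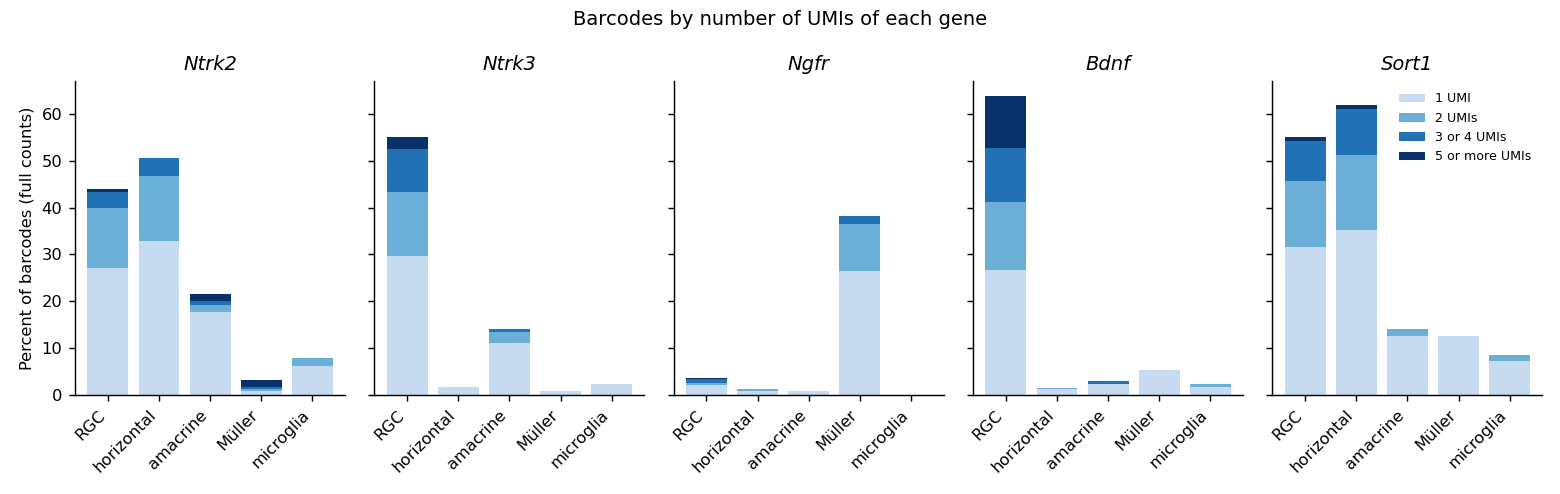
Percent of barcodes (vertical axis, from 0) in each class with 1, 2, 3 or 4, and 5 or more UMIs of a gene in full counts; the part up to 100% had none. Median depth is 15843 UMIs per RGC barcode and 3894 per microglia barcode. Bdnf has 104 RGC barcodes with 5 or more UMIs, Ngfr is found in 3.64% of RGC and 38.3% of Müller barcodes, and in Müller barcodes Ntrk2 appears in 7 barcodes, 3 of them with 5 or more UMIs.

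With 2-fold as the size of a call, 13 of the 20 ratios that 5 members gave for RGC over another class were at least 2 and 1, Ngfr against Müller, was 0.5 or less; Ntf3 gave none. Against horizontal barcodes Ntrk3, Ngfr and Bdnf were higher in RGCs, and none was past 2-fold lower. Among all genes with 20 or more UMIs in that comparison, 22.9% were higher and 10.2% lower. Against amacrine barcodes Ntrk3, Ngfr, Bdnf and Sort1 were higher, beside 11.2% of all genes, but the Ngfr ratio rests on 1 amacrine UMI. Against Müller barcodes Ntrk3, Bdnf and Sort1 were higher (26.2% of all genes) and Ngfr lower (19.3% of all genes). Against microglia barcodes the same Ntrk3, Bdnf and Sort1 were higher, beside 32.8% of all genes. Against the barcodes of no class, Ntrk3 and Bdnf were higher (16.0% of all genes) and Ntrk2 lower (15.1% of all genes). Ntf3 had fewer than 20 UMIs in every comparison.

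The remaining neurotrophin system was read from a list of 75 genes, 71 of which had enough UMIs. Of these, 19 were higher and 13 lower in RGC than in horizontal barcodes, 9 and 7 against amacrine, 21 and 21 against Müller, and 31 and 11 against microglia barcodes. The percent of all genes called lower was 12.8% against amacrine and 17.9% against microglia barcodes, the others being as given above. The median log2 ratio of the list was 0.28 against horizontal, 0.22 against amacrine, 0.18 against Müller and 0.87 against microglia barcodes. Over all genes it was 0.15, -0.05, 0.16 and 0.36 for the same comparisons.

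Ntf5, which encodes NT-4, the other TrkB ligand, had 4 UMIs in the whole data, 1 of them in RGC barcodes.

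Of 6 ranked genes of ligand processing, 4 were past 2-fold higher and 0 lower in RGC than in horizontal barcodes, beside 22.9% and 10.2% of all genes. Mmp9, a secreted protease able to cut proneurotrophins, stood at 73.6 CPM in RGC barcodes, against 2.58 CPM in horizontal barcodes (28.5-fold, 16.6 to 53.7), and it had no UMI in Müller barcodes (at least 27.6-fold). Pcsk2, a prohormone convertase of the regulated secretory pathway, stood at 70.4 CPM in RGC barcodes, against 15.1 CPM in horizontal (4.66-fold, 3.70 to 5.96) and 1.78 CPM in Müller barcodes. Plat, the tissue plasminogen activator gene, stood at 9.48 CPM in RGC, against 1.39 CPM in horizontal barcodes (6.82-fold, 3.23 to 17.3).

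The co-receptors of p75 come next. Lingo1, a p75 co-receptor in Nogo signalling, stood at 89.5 CPM in RGC barcodes, against 239 CPM in horizontal (2.67-fold higher, 2.47 to 2.89) and 6.23 CPM in Müller barcodes. Rtn4r, the Nogo receptor gene, stood at 22.7 CPM in RGC, against 52.3 CPM in horizontal barcodes (2.30-fold higher, 1.96 to 2.71) and 1.78 CPM in Müller barcodes (2 UMIs). Of 9 p75 partners, 0 were higher and 4 lower in RGC than in horizontal barcodes, beside 22.9% and 10.2% of all genes. Against amacrine barcodes 2 were higher and 0 lower (11.2% and 12.8% of all genes), against Müller 3 and 2 (26.2% and 19.3%), and against microglia 4 and 2 (32.8% and 17.9%). In the sortilin family, Sorcs3 was 9.71-fold (4.37 to 26.8) and Sorcs1 4.15-fold (2.76 to 6.51) higher in RGC than in horizontal barcodes, while Sorl1 stood at 106 CPM in RGC and 186 CPM in horizontal barcodes.

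Trophic receptors outside the neurotrophin family divided the classes further. Gfra1 and Gfra2, co-receptors for the GDNF family, stood at 2.21 and 9.10 CPM in RGC barcodes, against 112 and 247 CPM in horizontal barcodes, 50.6-fold (35.9 to 73.3) and 27.1-fold (22.8 to 32.4) higher. Ret, the kinase they share, stood at 55.8 CPM in RGC, against 226 CPM in horizontal barcodes. Cntfr, the CNTF receptor gene, stood at 41.6 CPM in RGC barcodes, against 348 CPM in Müller barcodes (8.37-fold higher, 7.37 to 9.50) and 2.38 CPM in horizontal barcodes. Gab1, a docking protein below Trk and other kinases, was 16.1-fold (10.4 to 24.96) higher in Müller and 11.5-fold (8.15 to 16.6) higher in horizontal than in RGC barcodes.

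The list also holds 9 genes that Trk signalling, among other stimuli, can induce. In RGC barcodes 2 were higher and 6 lower than in Müller barcodes, beside 26.2% and 19.3% of all genes, and 6 were higher and 2 lower than in horizontal barcodes, beside 22.9% and 10.2%. Dusp6, which encodes an ERK phosphatase, stood at 8.41 CPM in RGC, against 244 CPM in Müller barcodes (29.01-fold higher, 23.5 to 36.0). Fos stood at 348 CPM in RGC, against 3768 CPM in Müller and 3106 CPM in microglia barcodes. Vgf, a secreted neuropeptide precursor, went the other way, with 55.3 CPM in RGC, against 6.23 CPM in Müller and 3.18 CPM in horizontal barcodes (17.4-fold, 10.7 to 30.6).

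Within RGC barcodes, Ntrk2 and Ntrk3 were found together about as often as their single shares give. Barcodes were thinned to 12500 UMIs, which kept 701 and left out 233 shallower ones. Of the 701, 37.4% had an Ntrk2 UMI, 46.4% an Ntrk3 UMI and 3.71% an Ngfr UMI. Ntrk2 and Ntrk3 were both seen in 116 barcodes, 16.5% (13.9% to 19.5%), against 17.3% for the product of the single shares. Ntrk2 was seen in 35.7% (30.5% to 41.2%) of barcodes with an Ntrk3 UMI and in 38.8% (33.9% to 44.0%) of those without. Either gene was seen in 471 barcodes (67.2%). Taking the 3 receptor genes as exclusive combinations, 196 barcodes had Ntrk3 alone, 144 Ntrk2 alone, 110 Ntrk2 with Ntrk3, 13 Ntrk3 with Ngfr, 6 all 3, 5 Ngfr alone, 2 Ntrk2 with Ngfr, and 225 none. A barcode without a UMI at this depth is not shown to lack the gene. The share with both depends on depth: it was 24.8% in full counts of all 934 barcodes and 1.71% at 3000 UMIs.

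For Ntrk3 and Ngfr the intervals stood apart. Ntrk3 was seen in 19 of the 26 barcodes with Ngfr, 73.1% (52.2% to 88.4%), against 45.3% (41.5% to 49.2%) of those without it. Ngfr was seen in 5.16% (3.26% to 7.71%) of barcodes with a Bdnf UMI and 1.45% (0.398% to 3.68%) of those without, with intervals that overlapped. They overlapped for Bdnf and the gene of its own receptor too: Ntrk2 was seen in 35.7% (31.1% to 40.4%) of barcodes with Bdnf and 40% (34.2% to 46.1%) of those without.

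**Figure D3:**
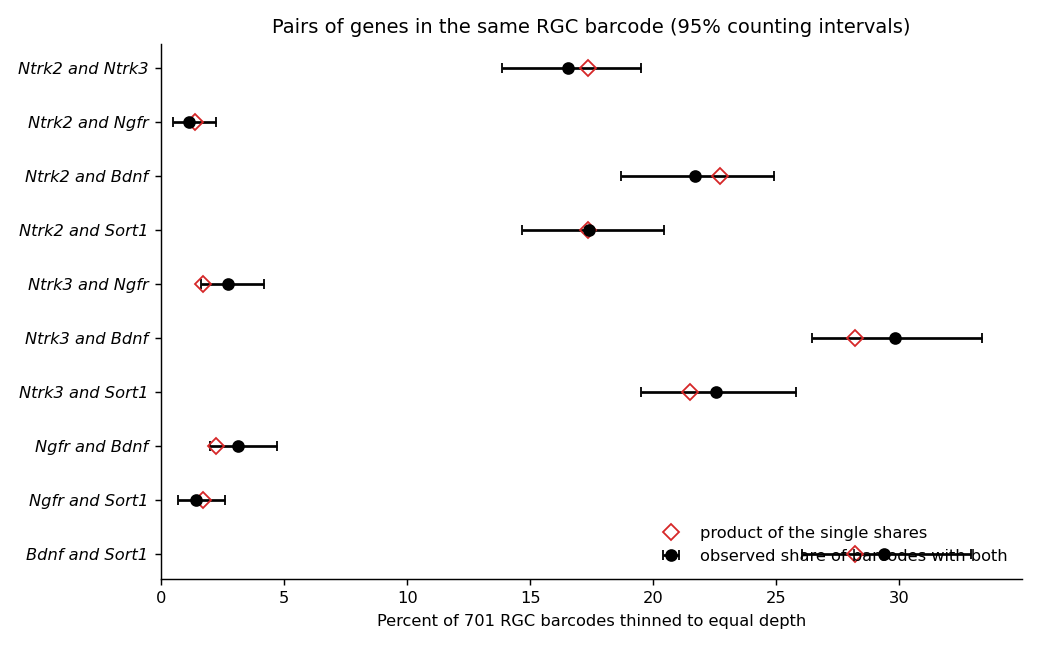
Percent of 701 RGC barcodes, thinned to 12500 UMIs, with a UMI of both genes of a pair (black points, 95% counting intervals) and the product of the single shares (open diamonds). Ntrk2 with Ntrk3 lies at 16.5% beside a product of 17.3%, and Ntrk3 with Ngfr at 2.71% beside 1.72%.

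The 934 RGC barcodes were clustered with the 6 genes and the pathway list left out, which gave 21 clusters of 20 or more barcodes, named here by number and leading genes. Bdnf had its highest level in cluster 7, led by Lmo2, Cnr1, Irx3 and Npy. Those 44 barcodes had 425 CPM (381 to 473), 4.91-fold the mean of the other clusters, and 42 of them had a Bdnf UMI. They are 5.07% of RGC UMIs and hold 19.2% of RGC Bdnf UMIs. Cluster 13, led by Myo10 and Tac1, followed with 204 CPM (168 to 245), and the lowest was cluster 14, led by Elfn1, with 23.4 CPM (10.1 to 46.0). Of all genes with 100 or more UMIs in RGC barcodes, 4.17% had a cluster at 4-fold or more over the others' mean, and of the 4 members that met this minimum Bdnf was the 1 that did.

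Ntrk3 varied between clusters in another way. It was highest in cluster 13, with 161 CPM (129 to 198) and a UMI in 29 of 32 barcodes, followed by cluster 5, led by Spp1, Ctxn3 and Prph, with 124 CPM (104 to 147), and cluster 18, led by Tbr1 and Crh, with 116 CPM (85.5 to 154). Cluster 1, led by Cidea and Cartpt, had 16.1 CPM (10.3 to 24.0). Cluster 17, led by Cpne5 and Stxbp6, had no Ntrk3 UMI in 25 barcodes. Set at 3 counts, that allows up to 7.50 CPM, and these barcodes had a median of 15383 UMIs. The same 25 barcodes had Ntrk2 at 52.5 CPM (32.5 to 80.3). The highest cluster was 2.69-fold the mean of the others.

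Judged by its highest cluster, Ntrk2 was among the more even genes. Its highest value, 53.1 CPM (33.3 to 80.4) in cluster 18, was 1.37-fold the mean of the others, and this fold stood at percentile 12.8 of the genes ranked. The lowest values were 19.1 CPM (11.5 to 29.8) in cluster 6, led by Runx1, and 19.5 CPM (11.9 to 30.1) in cluster 2, led by Ppp1r17. The highest Ntrk2 value was 2.78-fold the lowest. Sort1 lay between 14.4 CPM (5.28 to 31.3) in cluster 19, led by Zic1, and 106 CPM (77.2 to 143) in cluster 18, 1.97-fold the mean of the others.

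Ngfr was concentrated in 2 clusters. Cluster 5 held 46 of the 73 RGC UMIs, at 43.5 CPM (31.9 to 58.1), in 19 of 56 barcodes. Cluster 7, the cluster highest in Bdnf, held 19, at 23.7 CPM (14.3 to 37.0), in 8 of 44 barcodes, of which 1 barcode carried 10. In 14 clusters there was none. Cluster 5 had 371 CPM of the Müller marker list and cluster 7 had 621 CPM, where the 21 clusters ranged between 209 and 621 CPM, against 33466 CPM in Müller barcodes. Cluster 5 also had 284 CPM of Opn4, the melanopsin gene, and 17.04 CPM of Kcng4, known as an alpha RGC marker. Cluster 15, led by Cdkn1c, had 1171 CPM of Opn4 and no Ngfr UMI in 31 barcodes, which allows up to 6.83 CPM, with Ntrk3 at 82.0 CPM (57.4 to 114). Ngfr had fewer than 100 UMIs in RGC barcodes and was not ranked among all genes.

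**Figure D4:**
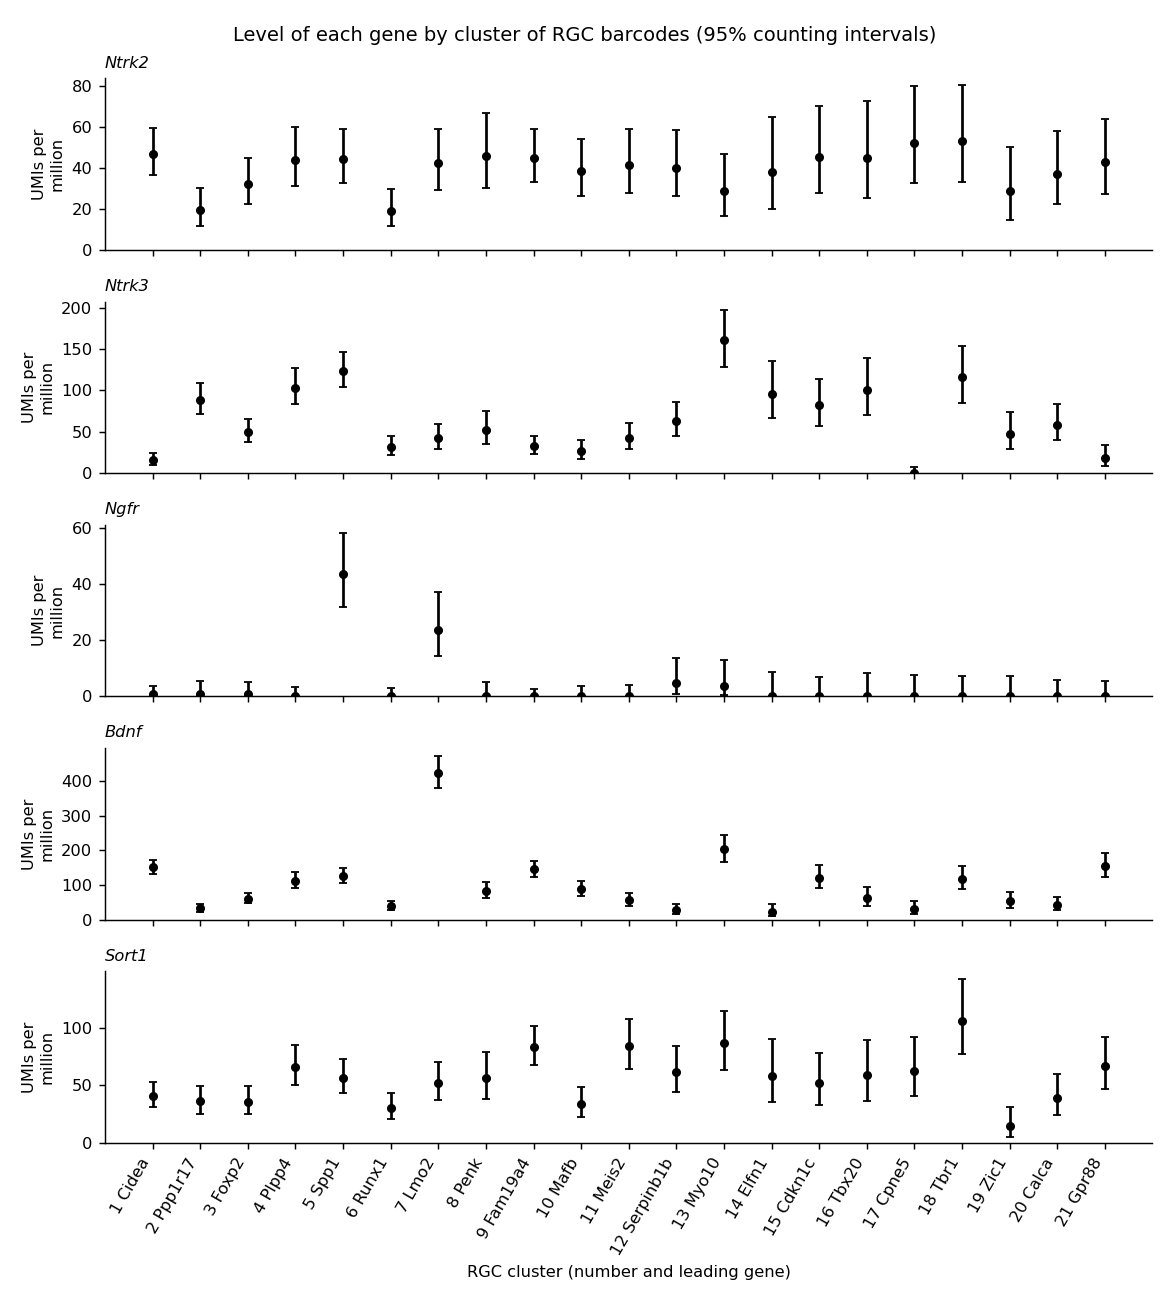
Level in CPM (vertical axes, each with its own scale from 0) in 21 clusters of RGC barcodes, given by number and leading gene; points are pooled values and bars 95% counting intervals (for a cluster at 0, up to 3 counts). Ntrk2 lies between 19.1 and 53.1 CPM, Bdnf peaks in cluster 7 (425 CPM), Ntrk3 in cluster 13 (161 CPM), and Ngfr in clusters 5 and 7.

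Genes with a like pattern over the 21 clusters were ranked by Pearson correlation of log2(CPM + 5). For Bdnf they were Hspa4 (r = 0.82), Ankrd34b (0.81), Cyp2u1 (0.81), Arhgef3 (0.78) and Fbxl14 (0.78). For Ntrk3 the first was Rchy1 (r = 0.76), for Ntrk2 Gucy1b3 (0.76), and for Sort1 Sdad1 (0.77). Among the members, the highest correlation over clusters was that of Ntrk2 with Sort1 (r = 0.56), that of Ntrk2 with Ntrk3 was -0.20, and that of Bdnf with Ntrk3 was 0.12. These values describe 21 clusters that share 1 library, and some clusters are small.

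RGC barcodes at equal depth were also divided by 12 marker genes of RGC types, with 1.5-fold as the size of a call. With a Pou4f1 UMI, Bdnf had 96.9 CPM, against 230 CPM in the 81 barcodes without one, 2.37-fold lower (2.04 to 2.75), and Ngfr had 2.19 CPM against 20.7 CPM, 9.46-fold lower (4.75 to 19.1). Of all genes, 11.1% were 1.5-fold or more lower with Pou4f1. Clusters 7 and 5, which hold most RGC Ngfr, had 44.9 and 40.7 CPM of Pou4f1. With Pou4f2, the gene behind the reporter, Ngfr was 15.7-fold higher (4.05 to 135; 36 UMIs with and 2 without; 5.54% of all genes higher), while Bdnf had 117 CPM with and 106 CPM without it.

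Ntrk3 and Ngfr were higher together with several markers. With Eomes (Tbr2), Ntrk3 had 104 CPM, against 51.4 CPM without (2.03-fold, 1.65 to 2.48), and Ngfr was 4.75-fold higher (2.36 to 9.46), where 8.56% of all genes were higher. With Opn4, Ntrk3 had 108 CPM, against 53.0 CPM without (2.03-fold, 1.62 to 2.52), and Ngfr was 17.3-fold higher (8.43 to 37.6), beside 9.51% of all genes. With Spp1, Ntrk3 was 1.70-fold (1.30 to 2.19) and Ngfr 16.7-fold (8.34 to 34.4) higher, beside 9.73% of all genes. In the 26 barcodes with 3 or more Spp1 UMIs they were 2.81-fold (2.06 to 3.76) and 37.9-fold (18.9 to 78.0) higher than in those with none. With Kcng4, seen in 18 barcodes, they were 1.84-fold (1.17 to 2.78) and 15.5-fold (6.92 to 32.2) higher, beside 15.5% of all genes. All 4 markers are present in cluster 5, which holds 46 of the 73 RGC Ngfr UMIs, so the divisions are not separate observations.

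Ntrk3 was lower with Neurod2 (30.6 CPM, against 64.0 CPM without, 2.09-fold, 1.51 to 2.98), and Bdnf (1.71-fold, 1.38 to 2.15) and Ngfr (2 UMIs with Neurod2) were lower too, where 12.5% of all genes were lower and 6.39% higher. The Ngfr interval there holds a ratio of 1. Ntrk3 was also lower with Cartpt (1.53-fold, 1.24 to 1.89; 6.03% of all genes lower, 7.90% higher) and with Pvalb (1.52-fold, 1.28 to 1.82; 4.05% of all genes lower, 5.97% higher). With Lmo2, seen in 26 barcodes, Bdnf had 311 CPM, against 105 CPM without (2.97-fold higher, 2.39 to 3.65), and 14.5% of all genes were higher. Cluster 7, the highest in Bdnf, is led by Lmo2 and had 44.9 CPM of Pou4f1. For Bdnf, the Lmo2 and Pou4f1 divisions are thus not observations separate from that cluster. With Foxp2, Ngfr had 1 UMI against 37 without (13.6% of all genes lower), and in the 50 barcodes with 3 or more Foxp2 UMIs it had none, so that, set at 3 counts, its log2 ratio is only known to be -0.03 or lower. With Tbr1 no member passed 1.5-fold upward, beside 7.67% of all genes; Ngfr had no UMI there. Ntrk2 and Sort1 passed 1.5-fold with none of the 12 markers: the ratios of Ntrk2 lay between 0.901 and 1.33, and those of Sort1 between 0.792 and 1.4988, the highest with Tbr1, just under the line.

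**Figure D5:**
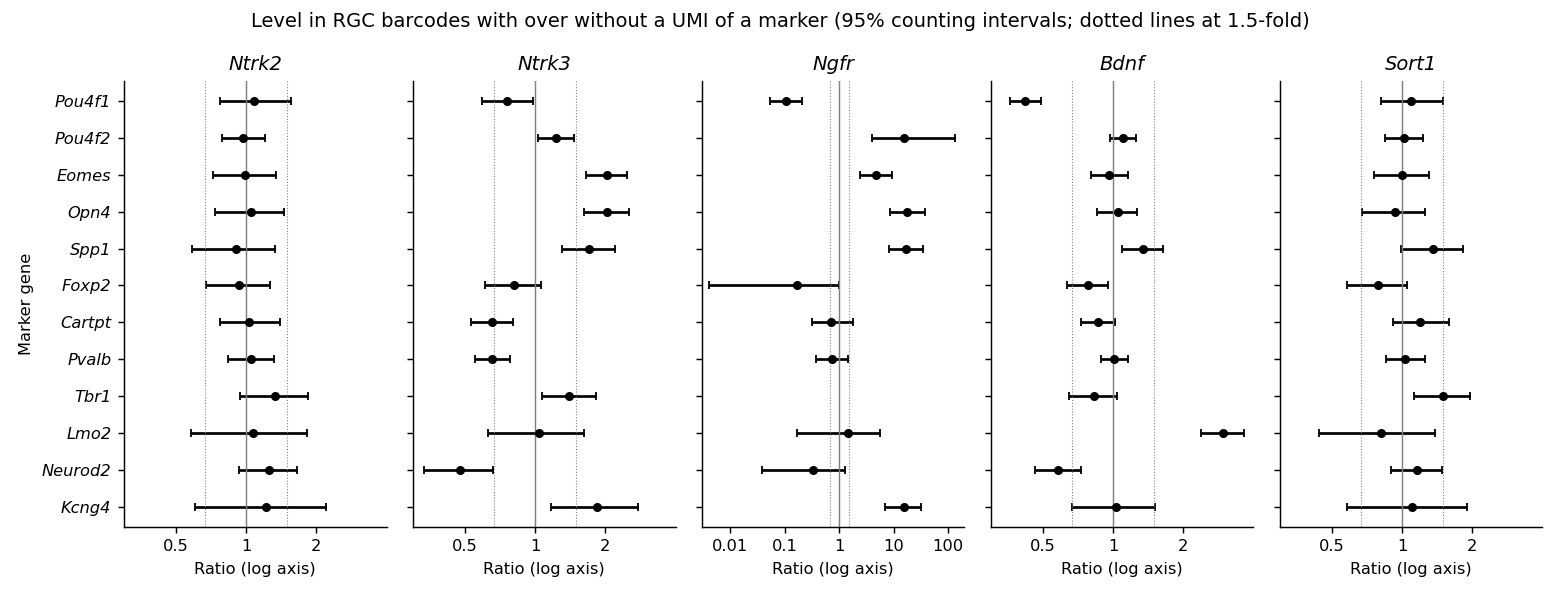
Ratio of the level in RGC barcodes with a UMI of a marker gene over those without it (horizontal log axes; Ngfr has a wider axis) for 5 genes and 12 markers, at 12500 UMIs per barcode. Bars are 95% counting intervals, the solid line is a ratio of 1 and dotted lines are 1.5-fold; Ngfr with Tbr1 is not drawn because it had no UMI with the marker. Ntrk2 and Sort1 stay within 1.5-fold, Bdnf is lowest with Pou4f1 (0.421) and highest with Lmo2 (2.97), and Ngfr is lowest with Pou4f1 (0.106).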

How the data were processed

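Single-cell libraries were made from GFP-sorted retina with the 10x 3′ V2 kit, per the labels. The deposited matrix holds UMI counts per gene and barcode, not normalized. The submitters' processing notes name Cell Ranger (no version), Seurat 2.2 and mm10; how barcodes were called cells is not stated there. No barcode filter was applied, since the class rules select barcodes; those meeting more than 1 rule were left out as possible doublets, and Scrublet was an alternative. Depth was 3198 to 53709 UMIs per barcode. Intervals are exact Poisson, Clopper-Pearson or conditional, at 95%. Ratios against 0 UMIs use 3 counts as the class floor, and a bound on the wrong side of 1 was no call. Ratios were ranked where the compared classes together held at least 20 UMIs of a gene.

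RGC barcodes were scaled to 10000, log-transformed and clustered (2000 variable genes, 30 components, 15 neighbours, Leiden resolution 1, seed 0). Intervals and thinning were tested on simulated data. Pathway genes named were at most 6 per direction and comparison, those past 2-fold with the most extreme ratios, of which those described were chosen after their values were seen; Sorcs1 was named outside this rule. Some listed genes are not reported here. Members, class rules and lists were chosen with earlier results of these data known. Python 3.11.15, numpy 2.4.6, scipy 1.17.1, scanpy 1.11.5, anndata 0.12.19, scikit-learn 1.9.0, python-igraph 0.11.9 and matplotlib 3.10.9 were used.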

Additional observations from a re-analysis of the deposited data

How the results depend on the processing

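Alternatives were a barcode filter (500 genes, under 10% mitochondrial UMIs), Scrublet doublets left out, barcodes of several classes kept, class minimums doubled, the top barcode of a gene left out, thinning, another cluster resolution, and other marker minimums. Of the class levels recomputed, 205 stayed within the reported interval and 23 did not; of the class ratios 138 did, 16 did not and 1 reversed. The bipolar, cone, astrocyte-list and Gpx3 groups, the member pairs and the Fos, Egr1 and Arc divisions were chosen after seeing the data. Ratios of a member in RGC over another class that were at least 2 numbered 13 in the values reported and 11 to 13 across settings. The shares of all genes past 2-fold given above belong to the values reported. The percent of RGC barcodes with both Ntrk2 and Ntrk3 was 16.5% as reported, 24.8% in full counts, 1.71% at 3000 UMIs and 1.57% with 2 or more UMIs required, and the ratio to the product of shares was 0.955, 1.03, 0.948 and 0.824. The log2 ratio of Ngfr in RGC over amacrine barcodes reversed, being -0.21 at 3000 UMIs and 1.98 as reported, from 1 amacrine UMI. Ntrk2 in RGC over amacrine barcodes changed sign, with a log2 ratio of 0.16 under the barcode filter and -0.38 as reported. Sort1 in RGC over Müller barcodes passed under 2-fold, with a log2 ratio of 0.88 at 3000 UMIs and 1.08 as reported. Ntrk2 in RGC over Müller barcodes passed 2-fold, with a log2 ratio of 1.40 at 3000 UMIs and 0.26 as reported, and Ngfr there was at -5.65 and -4.52. With barcodes of several classes kept, the log2 ratio of Ntrk3 in RGC over Müller barcodes was 3.15, against 5.07 as reported, and that of Bdnf over microglia 2.71, against 4.21. Ngfr in RGC over microglia barcodes gave no value at 3000 UMIs. Of 72 divisions of a member by a marker, 18 were past 1.5-fold as reported. The number was 16 with 3 or more marker UMIs required and 22 in full counts. The shares of all genes given above belong to the divisions as reported. With 3 or more UMIs the log2 ratio moved to 1.49 for Ntrk3 and 5.24 for Ngfr with Spp1, -4.46 for Ngfr with Pou4f1, and 2.14 for Bdnf with Lmo2 (4 barcodes). For Ngfr with Foxp2, at 0 UMIs, it is bounded only at -0.03, so the call of 1.5-fold is lost, and it passed 1.5-fold for Ntrk2 with Lmo2 (0.99, against 0.10 as reported). No paired analysis was possible because the barcodes form 1 pooled sample of 1 group. For the same reason no retina could be left out. Depth limits Ntf3 (16 UMIs) and Ngfr outside Müller barcodes.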
